A study of Mus musculus with 6 samples.

Results

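The 9 genes described here encode enzymes that make, salvage or break down deoxynucleotides, the precursors of DNA. They are Rrm1, Rrm2, Rrm2b, Tyms, Tk1, Dut, Dck, Dctd and Samhd1, chosen by gene symbol from the 49315 genes of the deposited count table, and each symbol matched 1 gene. The RNA came from CD8+ T cells sorted from the lymph nodes that drain B16F10 tumors, a transplantable mouse melanoma that the sample labels spell B26F10. The combination group (n = 3 mice) had received HCW9218 under the skin together with an antibody to PD1 injected into the peritoneum, and the monotherapy group (n = 3 mice) HCW9218 alone. HCW9218 is, by the title of the series, a complex of the TGF-β receptor II and IL-15. All 6 mice were wild-type female C57Bl6/J animals, were treated when tumors measured 50 to 100 mm3 and were killed on day 5. Every mouse carried a tumor and received HCW9218, so each difference is between HCW9218 with and without the PD1 antibody, with no untreated animal in the comparison.

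Ribonucleotide reductase converts ribonucleotides to deoxyribonucleotides and is built of the large subunit Rrm1 with a small subunit, either Rrm2 or Rrm2b. Pyrimidine precursors are then shaped by Dctd, Dut and Tyms, which lead to thymidylate, while Tk1 and Dck return salvaged deoxynucleosides to the pool and Samhd1 takes deoxynucleotides apart. In dividing cells, T lymphocytes included, Rrm2, Tyms and Tk1 are known as genes of the S phase, whereas Rrm2b, a p53 target, and Dck also serve cells that are not dividing.

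With the combination, Rrm2, Tyms and Tk1 rose, and the other 6 genes did not pass the test. The changes of the 3 were 2.56-fold for Rrm2, 2.36-fold for Tyms and 2.02-fold for Tk1. A gene is called at a Benjamini-Hochberg adjusted p under 0.05 in the edgeR quasi-likelihood test, run over 15142 genes. By this rule 3 of the 9 members were higher, beside 0.951% of all genes tested (1.08% were called in either direction). Of the 9 members 0 were lower, beside 0.132% of all genes, and DESeq2 and limma-voom also called 0 lower. At an unadjusted p under 0.05 stood 4 members, the called 3 and Dck, all of them higher. Fewer than 1365 of the 15142 genes tested stood there, since Dut, at an unadjusted edgeR p of 0.0586, ranked 1365 by p. The same bound stands beside the counts at an unadjusted p under 0.05 given for the gene lists below. All 9 members passed the filter on low counts. In 5 members all 3 combination libraries lay above all 3 monotherapy libraries, as in 7.17% of all genes, and in 0 members all lay below, as in 7.54% of all genes. The median log2 fold change of the members was 0.37, against -0.00060 over all genes tested. It was 0.24 without combination replicate 1, 0.69 with the sum of the melanocyte genes Dct and Tyrp1 as a covariate, and 0.68 with combination replicate 1 as the only combination library.

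**Figure D1:**
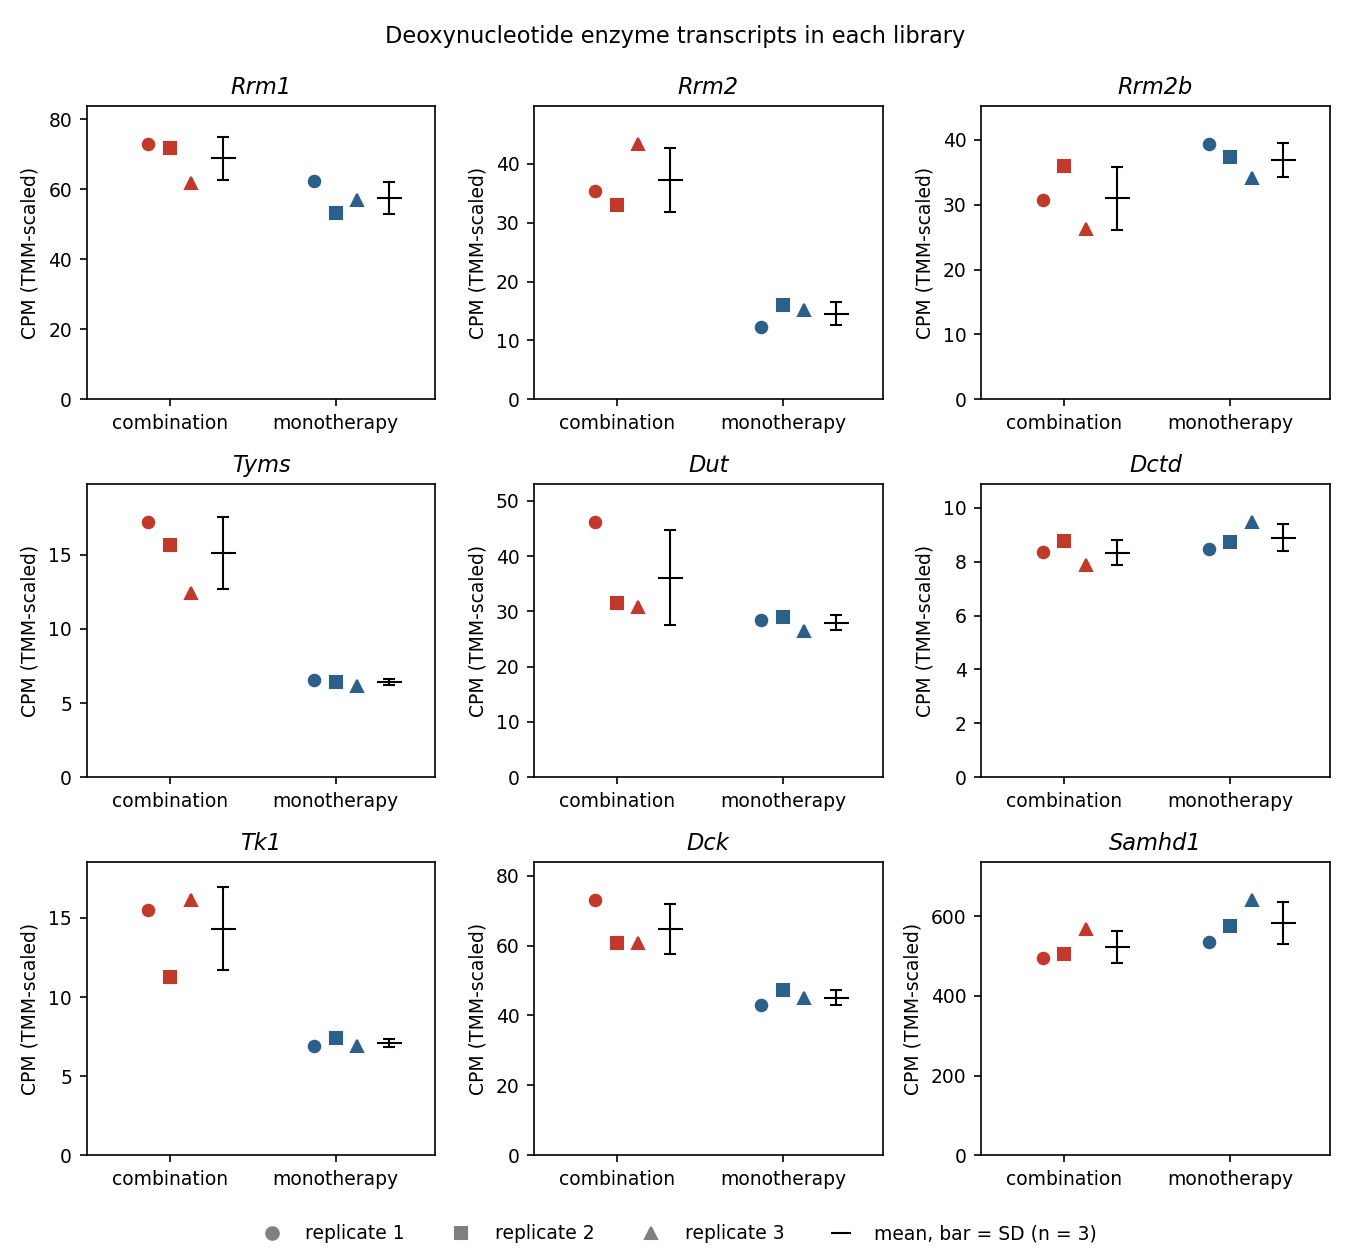
Level of each of the 9 genes in every library, in TMM-scaled CPM on axes that start at 0, with combination left of monotherapy, symbols marking the replicate number, and horizontal lines with bars for the mean and SD of 3 mice. For Rrm2, Tyms, Tk1, Dck and Dut the lowest combination library lies above the highest monotherapy library, and for the other 4 genes the groups overlap.

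Rrm2, the small subunit whose protein accumulates in S phase, had 35.4, 33.0 and 43.3 CPM in the combination libraries, against 12.3, 16.1 and 15.2 CPM in the monotherapy libraries. CPM here are counts scaled to library size by TMM factors, and Rrm2 was read 1164, 1250 and 1673 times in the combination and 442, 632 and 630 times in monotherapy. The groups do not overlap: the lowest combination library stood above all monotherapy libraries. Rrm2 averaged 37.2 ± 5.43 CPM in the combination and 14.5 ± 1.96 CPM in monotherapy (SD, n = 3 each). The edgeR log2 fold change was 1.36 ± 0.16 (SE), with a 95% interval of 1.00 to 1.72 (edgeR adjusted p = 0.00517). It was the only member that passed the threshold in all 17 alternative analyses, with log2 fold changes of 1.23 to 1.46 and adjusted p of 7.99e-12 to 0.0483. These alternatives are not independent. Those with the Dct and Tyrp1 covariate and with combination replicate 1 as the only combination library both rest on that library, wholly or nearly so. The gene (ENSMUSG00000020649) has 9 merged exons on chromosome 12, from 24708241 to 24714146 on the plus strand of GRCm38.

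Rrm1, the large subunit, which carries the catalytic and the regulatory sites, had 72.9, 71.9 and 61.9 CPM in the combination and 62.4, 53.4 and 56.9 CPM in monotherapy. Combination replicate 3 fell just below monotherapy replicate 1, so that the groups overlap at that one point. Its log2 fold change was 0.26 ± 0.13 (SE), with a 95% interval of -0.03 to 0.55 (edgeR adjusted p = 0.699). Rrm2b, the small subunit that supplies deoxynucleotides for repair and for mitochondrial DNA outside S phase, had 30.8, 36.0 and 26.3 CPM in the combination and 39.3, 37.3 and 34.1 CPM in monotherapy. Combination replicate 2 lay among the monotherapy values, and replicates 1 and 3 lay below them. The log2 fold change of Rrm2b was -0.25 ± 0.15 (SE), with an interval of -0.58 to 0.08 (edgeR adjusted p = 0.793). The 2 genes lie on chromosome 7 from 102441695 to 102469771 (plus strand) and on chromosome 15 from 37923952 to 37961318 (minus strand).

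**Figure D2:**
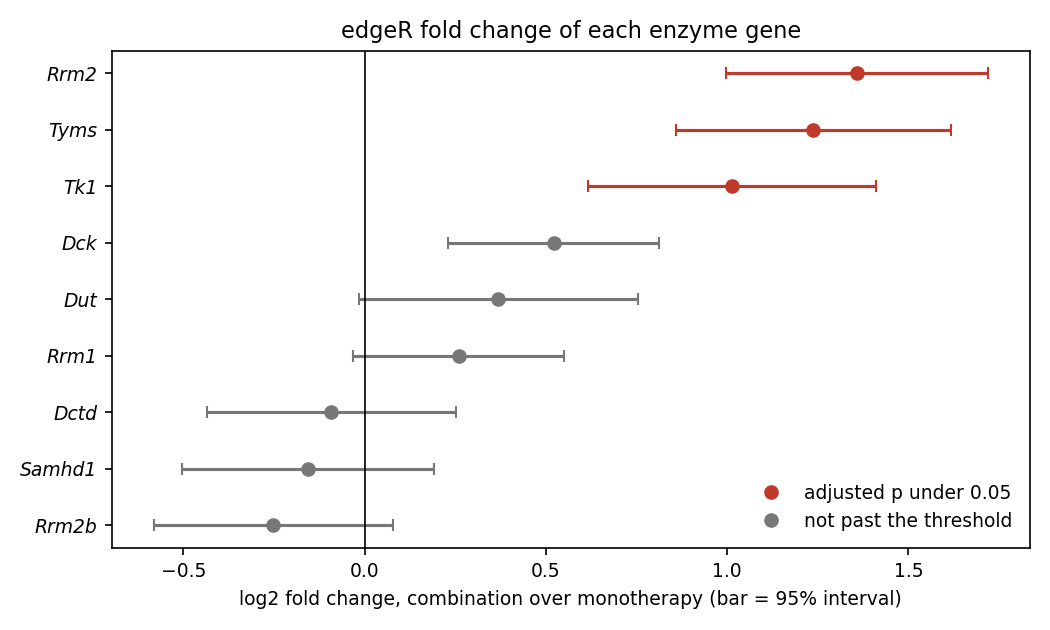
edgeR log2 fold change of each gene, combination over monotherapy, with bars for the 95% interval and red for genes past the adjusted threshold. The intervals of Rrm2, Tyms, Tk1 and Dck lie above 0, and those of the other 5 genes cross it.

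Within each library, Rrm2 was set against its partners by the log2 ratio of counts, a difference between libraries that needs no scaling. The ratio of Rrm2 to Rrm1 averaged -0.89 ± 0.33 in the combination and -1.99 ± 0.31 in monotherapy (SD, n = 3 each), a difference of 1.10. The ratio of Rrm2 to Rrm2b averaged 0.27 ± 0.43 in the combination and -1.35 ± 0.28 in monotherapy (SD, n = 3 each), a difference of 1.62. Neither ratio overlapped between the groups. Each gave an exact two-sided permutation p = 0.1, the smallest that 3 mice against 3 can give, and an adjusted p = 0.133 over the 4 ratios compared, so neither could pass the threshold.

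To compare levels between subunits, CPM were divided by the length of the merged exons, giving RPKM. Rrm2 then made up 72.8%, 68.1% and 79.3% of the summed Rrm2 and Rrm2b RPKM in the combination libraries, against 42.1%, 50.0% and 50.9% in the monotherapy libraries. In the combination Rrm2 was the more abundant small-subunit transcript in every library, and in monotherapy it stayed below an equal share of RPKM in replicates 1 and 2 and just above it in replicate 3. The shares by the length of the principal transcript instead were 70.5%, 65.6% and 77.4% in the combination and 39.4%, 47.2% and 48.1% in monotherapy. Both small subunits together, set against Rrm1, came to RPKM ratios of 2.65, 2.68 and 3.51 in the combination and 1.86, 2.39 and 2.09 in monotherapy. That ratio depends on the length used for Rrm1, whose merged exons span 11012 bases and whose principal transcript has 3997. With principal transcripts it was 1.25, 1.27 and 1.65 in the combination and 0.912, 1.16 and 1.01 in monotherapy.

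**Figure D3:**
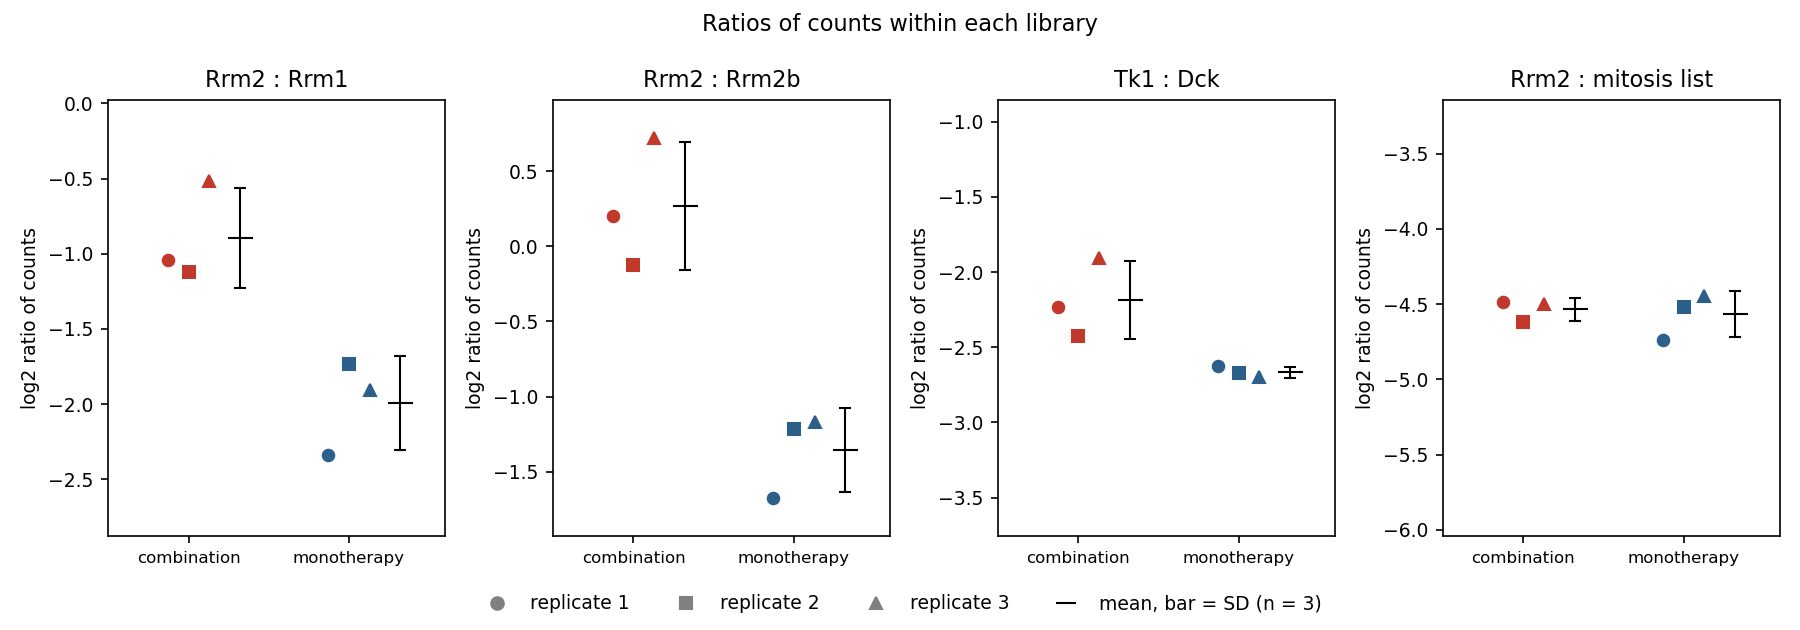
Log2 ratio of counts within each library (0.5 counts added) for Rrm2 to Rrm1, Rrm2 to Rrm2b, Tk1 to Dck and Rrm2 to the summed mitosis list, with combination left of monotherapy, points for libraries, and lines with bars for the mean and SD of 3 mice. The first 3 ratios are higher in all combination libraries, and the Rrm2 to mitosis ratio overlaps between the groups.

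Tyms, thymidylate synthase, makes dTMP from dUMP and is the target of fluoropyrimidines. It had 17.2, 15.7 and 12.4 CPM in the combination, against 6.57, 6.43 and 6.18 CPM in monotherapy. The monotherapy libraries lay close together, and all combination libraries stood clearly above them. Tyms averaged 15.1 ± 2.43 CPM in the combination and 6.39 ± 0.200 CPM in monotherapy (SD, n = 3 each). The edgeR log2 fold change was 1.24 ± 0.17 (SE), with an interval of 0.86 to 1.62 (edgeR adjusted p = 0.0101). Without monotherapy replicate 1, 2 or 3 the edgeR adjusted p was 0.0681, 0.0710 and 0.0777, at log2 fold changes of 1.27, 1.24 and 1.21. The gene (ENSMUSG00000025747) lies on chromosome 5 from 30058202 to 30073617, minus strand, in 8 merged exons.

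Dut hydrolyses dUTP to dUMP, the substrate of Tyms, and keeps uracil out of DNA. It had 46.1, 31.5 and 30.8 CPM in the combination, against 28.5, 28.9 and 26.5 CPM in monotherapy. The groups did not overlap, but combination replicate 1 stood far above the other two, which were within a few CPM of monotherapy. The log2 fold change was 0.37 ± 0.17 (SE), with an interval of -0.02 to 0.75 (edgeR adjusted p = 0.650). It was 0.17 without combination replicate 1, and 0.71 (edgeR adjusted p = 0.00765) when that library alone stood for the combination. Dctd, the deaminase that turns dCMP into dUMP, had 8.36, 8.78 and 7.87 CPM in the combination and 8.47, 8.74 and 9.46 CPM in monotherapy. The values of Dctd interleave between the groups, with a log2 fold change of -0.09 ± 0.15 (SE) and an interval of -0.44 to 0.25 (edgeR adjusted p = 0.969). Dut lies on chromosome 2 from 125247190 to 125258608 and Dctd on chromosome 8 from 48099092 to 48153233, both on the plus strand.

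Of the salvage kinases, Tk1 is the cytosolic thymidine kinase of cycling cells. It had 15.5, 11.3 and 16.1 CPM in the combination, against 6.94, 7.39 and 6.92 CPM in monotherapy. Combination replicate 2 was the lowest of its group and still above every monotherapy library. Tk1 averaged 14.3 ± 2.63 CPM in the combination and 7.08 ± 0.268 CPM in monotherapy (SD, n = 3 each). The edgeR log2 fold change was 1.01 ± 0.18 (SE), with an interval of 0.62 to 1.41 (edgeR adjusted p = 0.0283). Its call was lost without monotherapy replicate 1, 2 or 3 (edgeR adjusted p = 0.178, 0.146 and 0.165), with scaling by total counts (0.0610) and with a B cell marker sum as covariate (0.0550), at log2 fold changes of 0.99 to 1.04. The gene (ENSMUSG00000025574) lies on chromosome 11 from 117815526 to 117826092, minus strand. It shares 83 exon bases, 1.597% of its merged exons, with Afmid on the opposite strand, and the strand setting of the counting is not given in the sources used here. Afmid had a log2 fold change of 0.20 ± 0.17 (SE; edgeR adjusted p = 0.916).

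Dck, the kinase that phosphorylates deoxycytidine and also activates drugs such as cytarabine and gemcitabine, had 72.9, 60.6 and 60.6 CPM in the combination. In monotherapy it had 42.9, 47.2 and 45.1 CPM. All combination libraries lay above all monotherapy libraries. Dck averaged 64.7 ± 7.12 CPM in the combination and 45.1 ± 2.17 CPM in monotherapy (SD, n = 3 each). Its log2 fold change was 0.52 ± 0.13 (SE), with an interval of 0.23 to 0.81, and the edgeR adjusted p of 0.138 did not pass. DESeq2 gave Dck an adjusted p = 0.0296 at a log2 fold change of 0.53, and limma-voom an adjusted p = 0.157 at 0.52. The log2 ratio of Tk1 to Dck averaged -2.19 ± 0.26 in the combination and -2.67 ± 0.04 in monotherapy (SD, n = 3 each). That difference of 0.48 had no overlap between the groups, at the smallest possible exact permutation p = 0.1 (adjusted p = 0.133). Dck lies on chromosome 5 from 88764996 to 88783281, plus strand.

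Samhd1 hydrolyses deoxynucleotides, and with it restricts retroviruses in cells that do not divide. It had 496, 505 and 569 CPM in the combination and 535, 575 and 640 CPM in monotherapy. The groups overlap, since combination replicate 3 lay between monotherapy replicates 1 and 2. Its log2 fold change was -0.16 ± 0.16 (SE), with an interval of -0.50 to 0.19 (edgeR adjusted p = 0.934). Per length, Samhd1 was 4.24, 4.64 and 3.98 times the RPKM of Rrm2 in the combination libraries, against 13.2, 10.8 and 12.8 times in the monotherapy libraries. With principal transcripts these RPKM ratios were 7.83, 8.55 and 7.33 in the combination and 24.3, 20.01 and 23.5 in monotherapy. By either length the ratio was lower in every combination library than in any monotherapy library. The gene lies on chromosome 2 from 157097533 to 157135265, minus strand.

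By mean RPKM over merged exons, the order of the levels in the combination was Samhd1 (57.2), Dck (17.1), Dut (15.0), Rrm2 (13.4), Rrm1 (6.25), Rrm2b (4.82), Tk1 (2.75), Tyms (2.48) and Dctd (2.45). In monotherapy the mean RPKM were Samhd1 63.7, Dck 11.9, Dut 11.6, Rrm2b 5.74, Rrm2 5.24, Rrm1 5.23, Dctd 2.61, Tk1 1.36 and Tyms 1.05. In the combination the RPKM of Dut overlapped those of Dck and of Rrm2 over the libraries, and those of Tk1, Tyms and Dctd overlapped each other. In monotherapy Dck and Dut overlapped in RPKM, as did the 3 reductase subunits, while Dctd lay above Tk1 and Tk1 above Tyms in every library. Levels per length with the principal transcript were higher for every gene, and Rrm1 then stood at a mean of 17.2 RPKM in the combination, above Rrm2 at 17.0, and at 14.4 RPKM in monotherapy, against 6.62 for Rrm2.

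The 3 genes that rose sit on different chromosomes, and their promoter sequences are shown because all 3 were called higher with the combination. RefSeq (GRCm38.p6) gave windows for 8 of the 9 genes by symbol, all but Rrm2b, 10 windows in all with 3 for Dctd. Printed are the 250 bases before the RefSeq start, 5′ to 3′ on the gene's strand: chr12:24708004-24708253 (plus) for Rrm2, chr5:30073626-30073875 (minus) for Tyms and chr11:117826015-117826264 (minus) for Tk1. Capitals mark matches, on either strand, to CCAAT and to the GC box GGGCGG.
Rrm2: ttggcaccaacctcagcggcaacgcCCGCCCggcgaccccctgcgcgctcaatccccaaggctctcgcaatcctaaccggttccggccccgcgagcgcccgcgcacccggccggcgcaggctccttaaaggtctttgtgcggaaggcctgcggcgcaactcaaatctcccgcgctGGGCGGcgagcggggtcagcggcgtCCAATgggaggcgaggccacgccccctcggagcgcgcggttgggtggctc
Tyms: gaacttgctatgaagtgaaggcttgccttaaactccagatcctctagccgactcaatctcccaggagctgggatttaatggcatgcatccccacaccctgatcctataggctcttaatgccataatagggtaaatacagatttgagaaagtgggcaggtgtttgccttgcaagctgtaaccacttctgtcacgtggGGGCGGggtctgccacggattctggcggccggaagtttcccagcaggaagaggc
Tk1: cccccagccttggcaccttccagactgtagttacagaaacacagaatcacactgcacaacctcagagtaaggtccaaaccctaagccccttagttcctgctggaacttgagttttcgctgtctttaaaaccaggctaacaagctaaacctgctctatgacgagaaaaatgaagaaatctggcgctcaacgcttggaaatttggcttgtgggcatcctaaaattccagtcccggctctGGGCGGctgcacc
Rrm2 holds the letters CCAAT, beginning 50 bases before the start, and 2 GC boxes, at 225 and 75 bases. Tyms holds 1 GC box at 54 bases and Tk1 holds 1 at 13 bases. None of the matches marked in these windows overlap. The windows of the 8 genes held CCAAT in 4 of 10, including 2 matches in Rrm1, and a GC box in 8 of 10. Of the Dctd windows 2 overlap and hold the same CCAAT and the same GC box, so each of these is counted in both. These shares stand beside 33.8% and 32.7% of all 32851 windows in the table. The cell cycle homology forms TTTGAA and TTCGAA occurred in 1 of the 10 windows, that of Dck, and in 17.1% of all windows. The forms TTTGGCGC, TTTCCCGC, TTTGCCGC and TTTCGCGC, which E2F factors can bind, occurred in 0 of the 10 windows and in 1.86% of all windows. A match is a description of letters and not a site, and no match says only that these letters are not in this window.

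Over single libraries, the members with higher values did not share 1 pattern. Rrm2 and Tk1 were highest in combination replicate 3, like the summed CPM of a mitosis list, which was 794, 812 and 978 in the combination and 329, 368 and 331 in monotherapy. Tyms, Dut and Dck were highest in combination replicate 1, at 0.81, 0.55 and 0.44 above their own mean on the log2 CPM scale. Rrm2b was lowest in combination replicate 3, at -0.36 on that scale. Combination replicates 1 and 3 also differed from each other more than any other pair of libraries, by chi-square per gene. The 5 genes of at least 2 mean CPM whose centred log2 CPM lay nearest to Rrm2, out of 10897, were Rap1gap2, Plk1, Kif4, Bub1b and Kif15, with root mean square differences of 0.084, 0.088, 0.094, 0.099 and 0.1003 over the 6 libraries. Plk1 is a kinase of mitosis, Bub1b a spindle checkpoint protein, Kif4 and Kif15 are kinesins, and Rap1gap2 is a GTPase-activating protein for Rap1. Among the members, Tk1 was the nearest to Rrm2, with a difference of 0.232 and rank 68, followed by Tyms at 0.290 and rank 107 and Dck at 0.456 and rank 318. Rrm1 stood at rank 1103 and Rrm2b at rank 9374. The log2 ratio of Rrm2 to the mitosis list averaged -4.54 ± 0.08 in the combination and -4.57 ± 0.15 in monotherapy (SD, n = 3 each). The difference of 0.03 was within the spread of the libraries (exact permutation p = 0.8, adjusted p = 0.8).

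**Figure D4:**
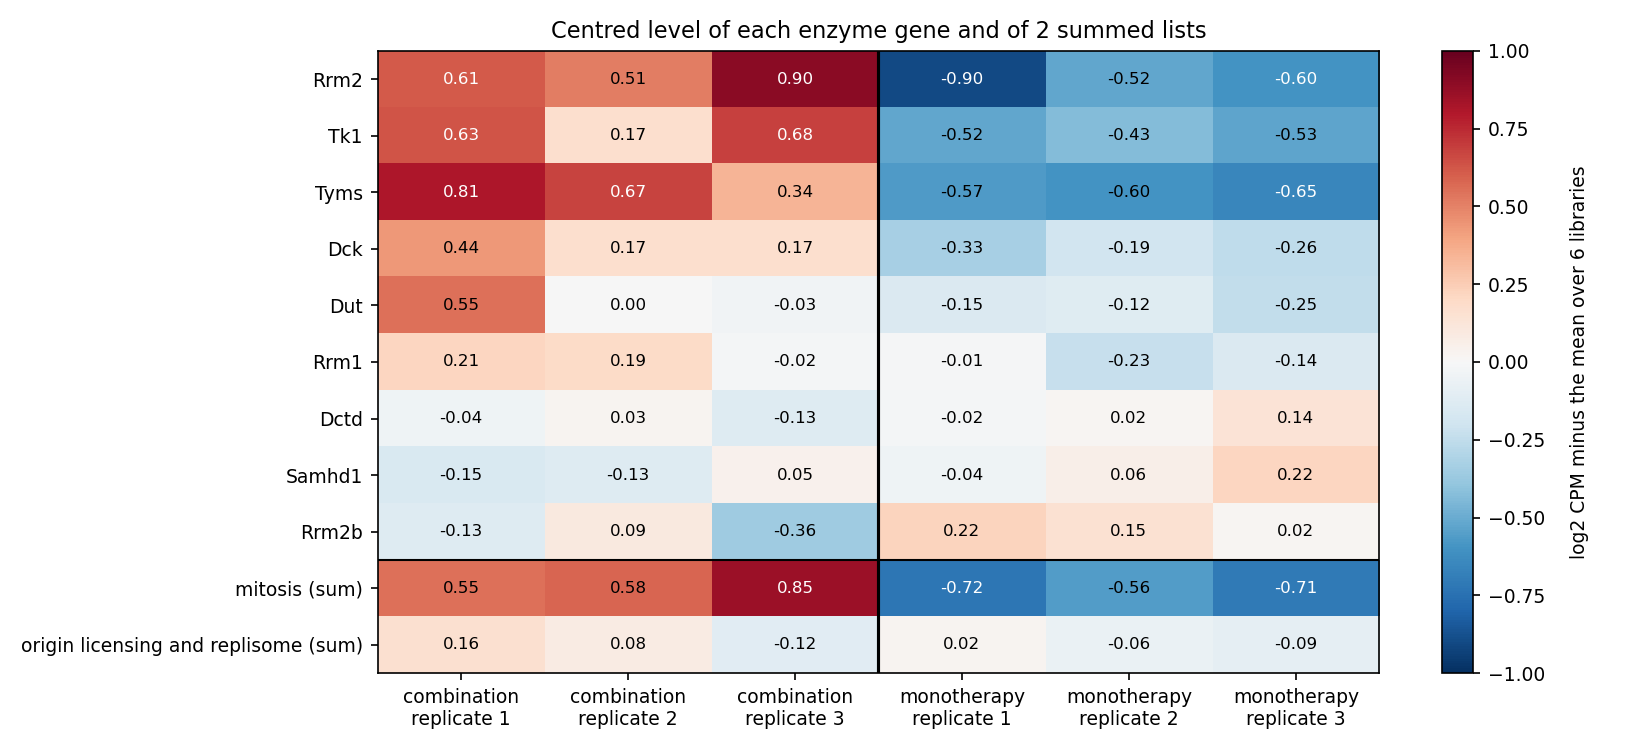
Centred log2 CPM of each gene (its value minus its mean over the 6 libraries) and of the summed mitosis and replication lists, with combination libraries left of monotherapy libraries, red above and blue below the mean. Rrm2, Tk1, Tyms and, more faintly, Dck are red in every combination library and blue in every monotherapy library. The mitosis sum is so too, whereas the replication sum stays near its mean.

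Other genes of deoxynucleotide supply did not follow the called 3. Of 13 tested genes of the thymidylate cycle and one-carbon metabolism 0 were called in either direction by edgeR, DESeq2 or limma-voom, 0 had an unadjusted p under 0.05, and the median log2 fold change was -0.18. Mthfd1, an enzyme that interconverts folates, had a log2 fold change of -0.24. Of 19 tested nucleoside and nucleotide kinases 0 were called by any of the 3 tools, with a median of -0.01, and 1, Tk2, had an unadjusted p under 0.05. Tk2, the mitochondrial thymidine kinase, had 48.3, 41.2 and 43.6 CPM in the combination and 54.9, 58.4 and 53.1 CPM in monotherapy. All combination libraries of Tk2 lay below monotherapy, at a log2 fold change of -0.32 ± 0.12 (SE; edgeR adjusted p = 0.499), which did not pass. The kinase genes Cmpk2 and Uckl1 came next by p, at log2 fold changes of -0.35 and -0.18.

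Of 15 tested genes for nucleotide breakdown and for cleaning the pool of damaged nucleotides, 0 were called by edgeR, DESeq2 or limma-voom, with a median log2 fold change of 0.08. The smallest p were those of Nt5e, Nudt5 and Xdh, at log2 fold changes of 0.23, 0.21 and 0.18. De novo synthesis was likewise without a call in any of these tools. Its 5 pyrimidine genes had a median of -0.07, with Umps at -0.22, Cad at -0.24 and Ctps at -0.07, and its 15 purine genes, salvage enzymes included, a median of -0.04, with Impdh2 at -0.15, Hprt at 0.33 and Paics at 0.20. Of 7 tested nucleoside and mitochondrial carriers 0 were called by any of the 3 tools, with a median of 0.03 and Slc25a36, Slc25a33 and Slc29a3 at -0.15, -0.20 and -0.15. In these 4 lists 0 genes had an unadjusted p under 0.05. The small medians moved with single libraries: that of the breakdown list was -0.03 without combination replicate 1 and 0.27 without combination replicate 3, and those of the kinase, purine and carrier lists also changed sign when 1 library was left out.

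Among genes of origin licensing and the replisome, 1 of 36 rose, with a median log2 fold change of 0.06 (-0.02 without combination replicate 1 and 0.13 without combination replicate 3), and 8 had an unadjusted p under 0.05. The called gene was Mcm10, an initiation factor, with 6.44, 6.91 and 8.52 CPM in the combination and 2.81, 3.58 and 3.02 CPM in monotherapy (log2 fold change 1.22 ± 0.20 SE, edgeR adjusted p = 0.0238). Next by p, not past the threshold in edgeR, were the loading factor Cdc6 (0.97, edgeR adjusted p = 0.0583), the helicase component Cdc45 (0.86, adjusted p = 0.0961) and the chromatin assembly factor Chaf1a (0.67, adjusted p = 0.326). DESeq2 called Cdc6 and Cdc45 as well as Mcm10. With scaling by total counts, with either covariate, without combination replicate 2 or without any 1 monotherapy replicate, 0 of the 36 were called. Of 28 regulators of the entry into S phase 4 rose, with a median of 0.31. These were the cyclins Ccna2 (1.55, edgeR adjusted p = 0.00450) and Ccnf (1.32, 0.0212) and the E2F factors E2f2 (1.12, 0.0162) and E2f8 (1.65, 0.0238). E2f7, Ccne2 and Chek1 followed, not past the threshold in edgeR, at log2 fold changes of 1.93, 0.84 and 0.94, and DESeq2 called these 3 as well (7 of 28). Of 30 mitosis genes 27 rose, with a median of 1.47, among them Nusap1 (1.65), Top2a (1.38), Kif11 (1.53), Ckap2l (1.79), Tpx2 (1.59) and Birc5 (1.91). Aurka, Kif23 and Ndc80 did not pass in edgeR, at 0.85, 0.48 and 0.60, and of these DESeq2 called Aurka (28 of 30). The number of mitosis genes called was 8, 14 and 9 without monotherapy replicates 1, 2 and 3, and 1 of the 28 regulators was called without each of them, without combination replicate 2 and with the Dct and Tyrp1 covariate.

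**Figure D5:**
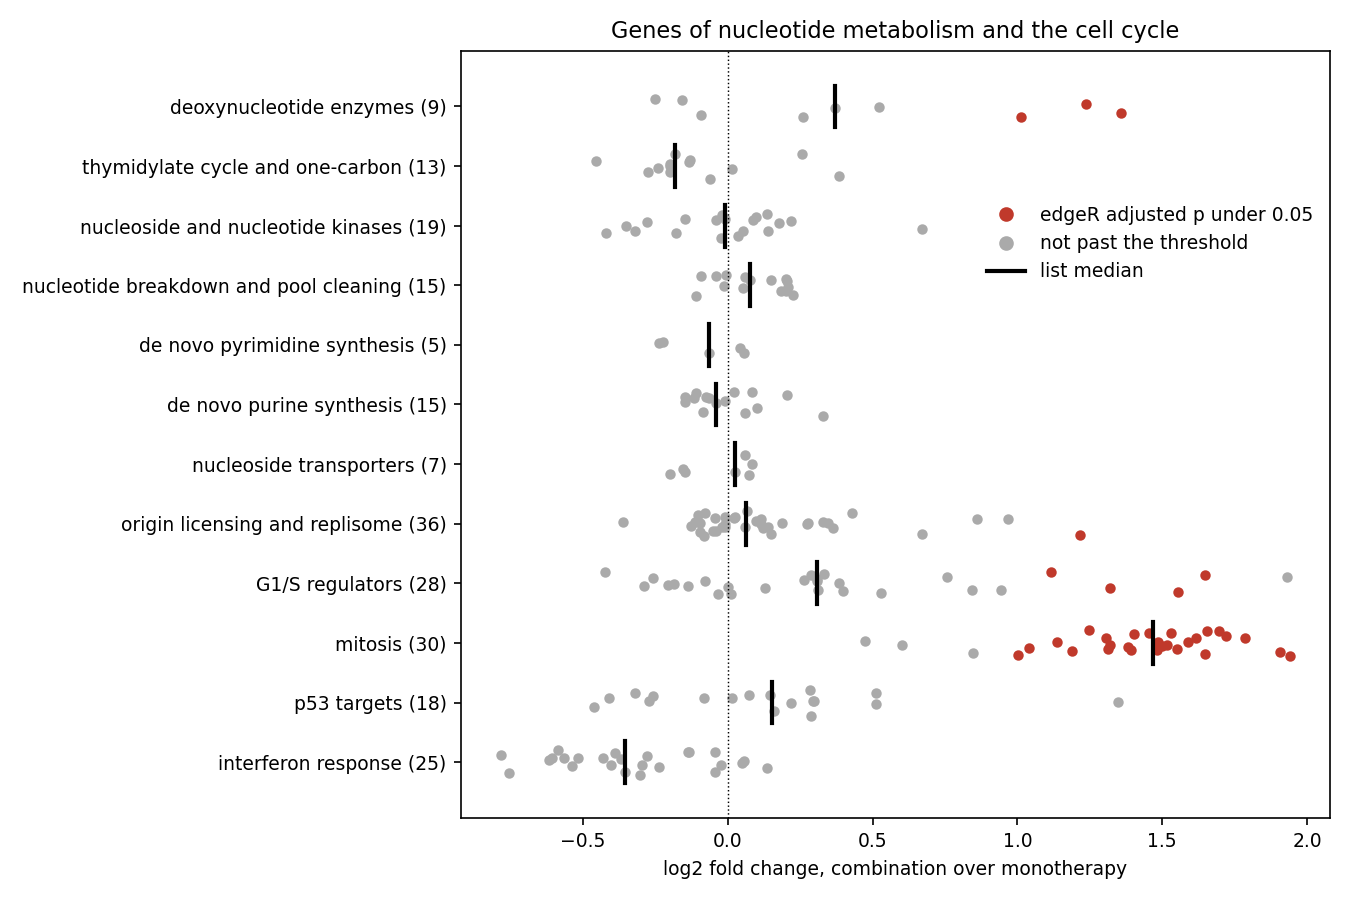
edgeR log2 fold change, combination over monotherapy, of every tested gene of the 9 enzymes and of 11 further lists (tested genes in brackets), with red for an adjusted p under 0.05 and a black bar for the list median. Called genes lie in the lists of the deoxynucleotide enzymes, replisome, G1/S regulators and mitosis, and the medians of the 6 other lists of nucleotide metabolism lie between -0.18 and 0.08.

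Rrm2b is known as a p53 target, and Samhd1 as a gene that interferon can induce. Of 18 tested p53 targets 0 were called by edgeR or limma-voom and 1, Bbc3, was called higher by DESeq2, 4 had an unadjusted p under 0.05, and the median log2 fold change was 0.15. Bbc3, a promoter of cell death, stood at 1.35 ± 0.35 (SE; edgeR adjusted p = 0.162), with Sesn1 at 0.51 and Btg2 at -0.32. Of 25 interferon response genes 0 were called by edgeR or limma-voom and 1 was called lower by DESeq2, 7 had an unadjusted p under 0.05, and 22 had a log2 fold change below 0, with a median of -0.36. With all genes that had a count tested, edgeR called 6 of the 25 lower. Irf7 and Ifih1 had log2 fold changes of -0.52 and -0.59, each with all combination libraries below all monotherapy libraries, beside -0.16 for Samhd1.

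The libraries held 34568074 to 40101346 counts, and members had 236 (Tyms) to 26524 (Samhd1) counts per library. Cd8a stood at 1440 to 1588 CPM in the combination and 1421 to 1646 CPM in monotherapy, and Cd4 at no more than 3.06 CPM. In bulk RNA, more cells with a transcript and more of it per cell cannot be told apart. Of the melanocyte markers, Dct and Tyrp1 stood apart in 2 libraries. The pigment enzyme gene Dct was read 0, 301 and 377 times in the combination and 0 times in each monotherapy library. Tyrp1, another pigment enzyme gene, was read 0, 281 and 366 times in the combination and 1, 0 and 0 times in monotherapy. Summed over 6 melanocyte markers, Dct and Tyrp1 included, counts were 956, 1541 and 2039 in the combination and 874, 822 and 1125 in monotherapy. Other markers of this list were thus read in every library. The 1 marker of the 6 that passed the count filter had a log2 fold change of 0.18 and was not called. Combination replicate 1, with 0 counts of Dct and Tyrp1, had 35.4 CPM of Rrm2, 17.2 of Tyms and 15.5 of Tk1, each above all monotherapy libraries. With the Dct and Tyrp1 sum as a covariate the log2 fold changes were 1.28 for Rrm2, 1.43 for Tyms and 1.11 for Tk1. That sum was at or near 0 counts outside combination replicates 2 and 3, so the covariate all but marks these libraries. The group difference in this fit therefore rests almost wholly on combination replicate 1. With that library as the only combination library the log2 fold changes were 1.27, 1.41 and 1.12. Summed over 4 markers of NK cells, CPM were 20.3, 20.7 and 11.6 in the combination and 7.58, 6.86 and 6.13 in monotherapy. The median log2 fold change of these 4 was 1.03, with 3 above 0 and 1 below, and Klre1 was the 1 called, higher. Ncr1, a low-count marker, stayed at or under 0.362 CPM in every library. Summed over 8 B cell markers, CPM were 48.9, 84.9 and 51.4 in the combination and 44.8, 64.9 and 54.0 in monotherapy, and this sum is the B cell covariate. Of the 8 markers 6 had a log2 fold change below 0, with a median of -0.47, while Cd22 was the 1 called, higher in the combination. Their part in the changes of Rrm2, Tyms and Tk1 was not tested beyond the covariates. Processed pseudogene copies with at least 90% identity over at least 200 coding bases are annotated for Rrm2, Rrm2b, Tk1 and Tyms, so that the placement of reads between gene and copy is uncertain for these 4 members. The Tk1 copy, Gm5742, had 6 counts over all 6 libraries. The copies of Rrm2, Rrm2b and Tyms are not among the genes counted in the deposited data.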

How the data were processed

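Sorted CD8+ T cells were profiled by bulk RNA sequencing, with groups and replicate numbers taken from the sample titles. Per the labels' protocols, the Trizol method was used for RNA, oligo(dT) beads for mRNA and the NEBNext Ultra II kit for the libraries. The submitters' processing notes name STAR 2.5.2b, featureCounts, Subread 1.5.2 and DESeq2. For the counting, the genome build, annotation, strand setting and handling of reads with several matches are not given in the sources used. The counts were deposited as whole, unnormalized reads for 49315 genes. In 6 of 6 libraries the per-library file equalled its column in the series table, where 6 more columns belong to no sample and stayed out. The deposited normalized and regularized-log tables were not used. Of the genes, 49056 are in GENCODE M21 (GRCm38) and 44823 of these (91.4%) have identical coordinates, including all 9 members.

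Counts were filtered with filterByExpr, which left 15142 genes, scaled with TMM and tested in R 4.3.3 with edgeR 4.0.16 (quasi-likelihood F-test, Benjamini-Hochberg adjustment over all genes). Fold changes are combination over monotherapy. For ratios, two-sided exact permutation tests over the libraries were used. DESeq2 1.42.0, limma-voom (limma 3.58.1), other scalings and filters, covariates and left-out libraries served as alternatives. Levels per length by the principal transcript were added after the data were seen. Copies were searched with blastn 2.17.0.

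All 9 members are named. From each list, called genes (at most 6) and up to 3 others with the smallest p are named. A few genes taken by that rule are not reported here. The members and lists were chosen with earlier results of these data known. Any 2 libraries differed by a chi-square per gene of 9.94 or more, beyond counting noise. The largest value, 296, was between combination replicates 1 and 3. The p-values measure the spread between 3 mice a group.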

Additional observations from a re-analysis of the deposited data

How the results depend on the processing

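Over all genes, where the main analysis called 144 higher and 20 lower, other settings gave 340 higher and 113 lower (all 32567 genes with a count tested, which moved the median of all genes to 0.09 log2), 282 and 72 (DESeq2), 86 and 5 (B cell covariate), and 97 lower with the Dct and Tyrp1 covariate. The replicate numbers are not stated to pair mice, and the same-numbered libraries deviated together only in part (r = 0.145, -0.055 and 0.279). With the replicate number as a block 231 genes were higher and 57 lower, and the same 3 members were called. Leaving out 1 library gave 32 to 233 higher and 2 to 49 lower genes, 1 to 3 members higher, and 9 to 37 of the list genes higher, where 32 were higher and 0 lower in the main analysis. With the B cell covariate 21 list genes were higher. With all genes that had a count tested 6 list genes were lower, and with DESeq2 1 was, all of them interferon response genes. With combination replicate 1 as the only combination library, assumed to vary like the monotherapy libraries, 1001 genes were higher and 789 lower, with 5 members higher and 52 list genes higher and 10 lower. The Rrm2 to mitosis ratio ranged from -0.054 to 0.093 with 1 library left out, and turned to -0.054 (exact permutation p = 0.6) without monotherapy replicate 1. The ratios with 1 library left out ran from 0.908 to 1.23 for Rrm2 to Rrm1, from 1.39 to 1.81 for Rrm2 to Rrm2b and from 0.340 to 0.596 for Tk1 to Dck. The causes of these shifts were not tested. Rrm1, Rrm2b, Dctd and Samhd1 passed in 0 of 17 alternatives. With 3 mice a group, ratios cannot pass an exact test.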
